A study of Mus musculus with 12 samples.

Results

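The 10 genes described here encode 7 lysosomal proteases of the cathepsin group (Ctsb, Ctsc, Ctsd, Ctsh, Ctsl, Ctss and Ctsz), a pair of lysosomal membrane proteins (Lamp1 and Lamp2) and the transcription factor Tfeb. They were taken by gene symbol from the tables of bulk mouse retina RNA-seq, where each was present once among 25124 genes. All 10 passed the filter on low values and were tested in both tables, and each was above 3 reads in every library (from 114 reads for Tfeb to 38154 for Ctsb). Cathepsins are made as inactive precursors and cleave proteins in the acidic lumen of the endosome and lysosome. Most are cysteine proteases, while cathepsin D is an aspartic protease. LAMP proteins coat the inner face of the lysosomal membrane, and TFEB is a basic helix-loop-helix factor that enters the nucleus when mTORC1 is inactive and turns on lysosomal genes through an E-box with the core CACGTG. In the retina, the pigment epithelium uses these proteases to digest shed photoreceptor outer segments, and microglia, the resident macrophages, use them to degrade engulfed material and to process antigen.

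By the labels the libraries were poly(A)-selected, strand-specific RNA-seq of whole retina from wild-type C57BL/6J mice. Intraocular pressure (IOP) was raised to 30 mmHg for 1 h in one eye, and the untreated contralateral eye was the control. The eyes of mice aged 3 months (3mo IOP with 3mo control) or 18 months (18mo IOP with 18mo control) were collected on day 2 after 1 elevation. A further pair of groups, 4xIOP and 4xIOP control, came from mice given 4 biweekly elevations from the age of 3 months and collected on day 2 after the last. Every group had 2 libraries. By the study's methods a library came from 1 eye, but the labels do not say which libraries share a mouse, so p-values measure the spread between these libraries. The controls were the fellow eyes of treated mice, without pressure elevation but from the same anaesthetised animals, so no group came from mice without an operated eye.

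Depth lay between 39766318 and 59455152 tags per library, and between 44.2% and 71.5% of tags were in exons. Values were read counts divided by transcript length and library size (FPKM), normalised apart in the single-IOP table (8 libraries) and the 4xIOP table (4 libraries), so levels were not compared between these tables. Rpph1, the RNA of ribonuclease P, took between 53255 and 82734 FPKM in the 4xIOP table and at most 28.0 in the other. This RNA carries no poly(A) tail, and whether both tables came from the same library protocol is in doubt. Short transcripts (under 1000 bases) had a median FPKM between 3.03 and 9.12 times that of long ones (4000 bases or more) in the single-IOP libraries of 3-month-old mice and between 1.52 and 1.89 times in those of 18-month-old mice. Summed markers of the retinal pigment epithelium were between 199 and 528 FPKM in the former and between 2.60 and 11.6 in the latter. Of the 3mo control pair, replicate 2 was above replicate 1 for all 10 genes.

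Promoters of 8 of the 10 genes were found in the RefSeq promoter table of GRCm38.p6, the build the files call mm10, while Ctsb and Ctsh were not listed. The 250 bases before the start of 3 of them are shown because they differ in CACGTG, the core of the element read by TFEB. Capitals mark the palindrome CACGTG in Lamp1 and Ctsd, and in Ctss, which has no CACGTG, the letters of the interferon-stimulated response element, which is GAAA, any 2 bases and GAAA again.
Lamp1 (chr8:13158911-13159160, plus strand): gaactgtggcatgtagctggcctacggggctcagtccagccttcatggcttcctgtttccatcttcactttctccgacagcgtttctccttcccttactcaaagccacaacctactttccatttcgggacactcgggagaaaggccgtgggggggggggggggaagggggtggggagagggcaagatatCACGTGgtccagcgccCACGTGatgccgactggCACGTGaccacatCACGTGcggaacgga
Ctsd (chr7:142387828-142388077, minus strand): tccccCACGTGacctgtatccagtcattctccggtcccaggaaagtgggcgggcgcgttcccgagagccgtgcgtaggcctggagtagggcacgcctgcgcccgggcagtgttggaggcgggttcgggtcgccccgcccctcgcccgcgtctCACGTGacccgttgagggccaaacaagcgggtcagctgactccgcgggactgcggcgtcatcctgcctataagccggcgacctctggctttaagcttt
Ctss (chr3:95526536-95526785, plus strand): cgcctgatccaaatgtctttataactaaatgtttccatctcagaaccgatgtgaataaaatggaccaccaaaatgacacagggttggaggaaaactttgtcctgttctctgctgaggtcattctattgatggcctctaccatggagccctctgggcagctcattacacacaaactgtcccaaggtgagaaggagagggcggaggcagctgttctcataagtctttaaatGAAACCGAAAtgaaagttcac
Lamp1 held 4 copies of CACGTG, at 61, 45, 28 and 15 bases before the start. Ctsd held 2 copies, at 245 and 98 bases, and Ctsl held 1 at 236 bases. Ctsc, Ctss, Ctsz, Lamp2 and Tfeb held none in this window. Over all 32851 RefSeq promoter windows of this length, read on both strands, 6.02% held CACGTG and 2.98% held the interferon-stimulated response element. The latter was found 21 bases before the Ctss start and, on the other strand, 135 bases before that of Lamp1. These matches describe letters and were not tested as binding sites.

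Among the 10 genes, Ctsd had the highest level per transcript length in every group. In 3mo control its mean was 165 ± 36.1 FPKM (SD, n = 2), followed by Ctsb with 93.1 ± 22.6 and Lamp1 with 76.2 ± 4.56. Ctsb and Lamp1 overlapped there, as did Ctsl with Lamp2 and Ctss with both Ctsh and Ctsz. Ctsc with 1.61 ± 0.474 and Tfeb with 1.46 ± 0.218 were the lowest and also overlapped. The order was not the same in the treated eyes. In 4xIOP control Ctss ranked below Ctsz with a mean of 4.35 ± 0.640 FPKM, whereas in 4xIOP it had a mean of 63.3 ± 10.3 and its libraries overlapped those of Ctsb and Lamp1. Ctss took 2.55% and 2.10% of the summed FPKM of the 7 cathepsins in 4xIOP control and 19.0% and 12.2% in 4xIOP. Ctsd, in contrast, took 53.7% and 55.7% in 4xIOP control and 41.8% and 48.0% in 4xIOP.

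**Figure D1:**
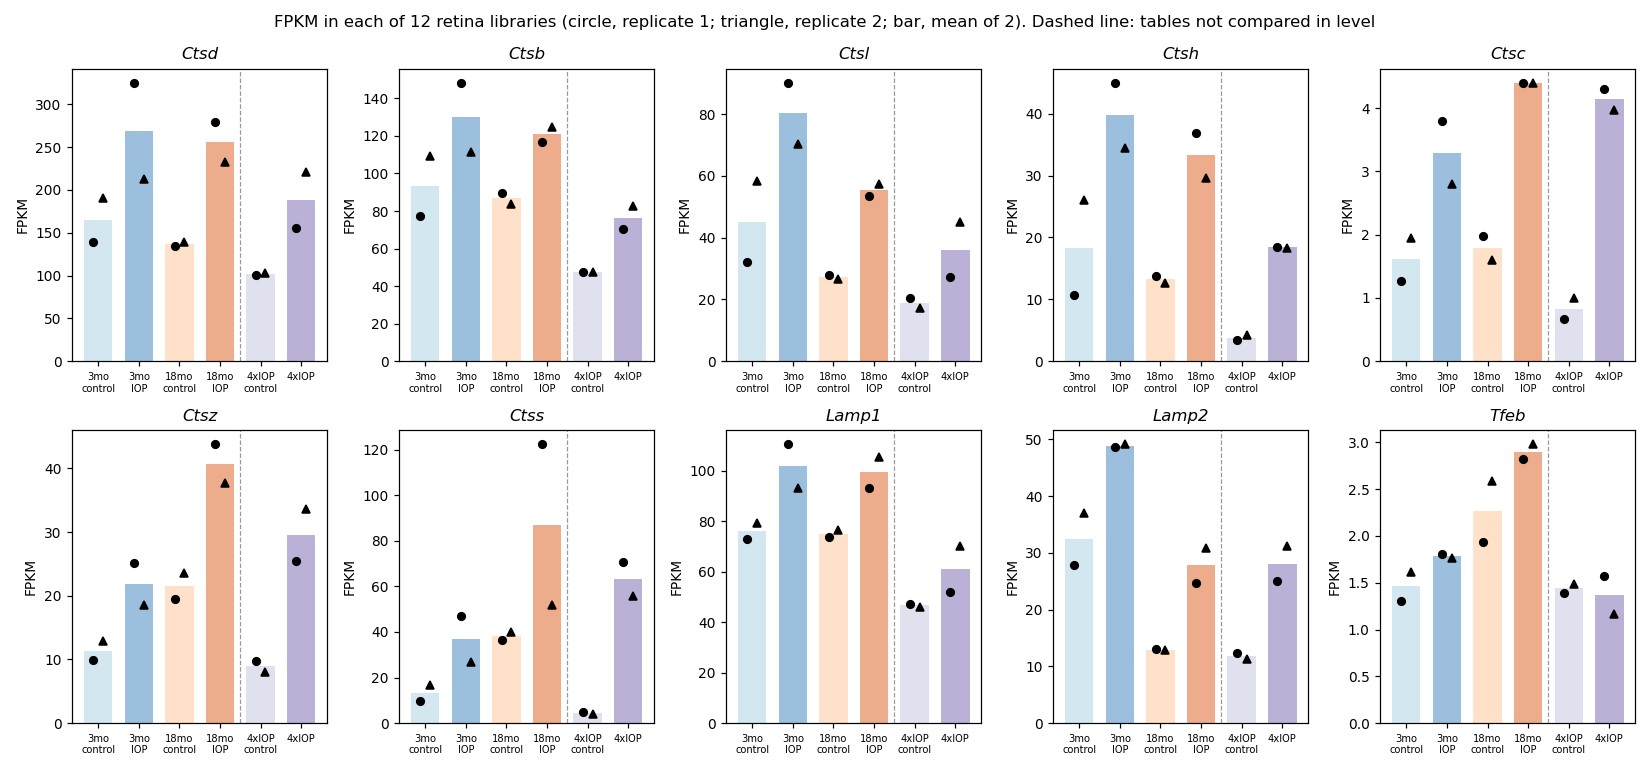
FPKM (linear axis from 0) of each gene in each library, with bars for the mean of the 2 replicates of a group and circles and triangles for replicates 1 and 2. IOP-treated libraries lie above their controls for every gene except Tfeb in the 4xIOP table, and Ctss rises from 4.80 and 3.89 to 70.6 and 56.0 FPKM after 4 elevations.

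Repeated elevation gave the clearest changes. After 4 elevations Ctss, Ctsh, Ctsc, Ctsz and Lamp2 were higher at an adjusted p of at most 0.05 and at least 2-fold, so 5 of the 10 genes were called higher and none lower. Of all 13718 genes tested in that table, 5.45% were called higher by the same rule and 0.693% lower. With quantile normalisation the split over all genes was 500 higher and 142 lower in place of 748 and 95. Fold changes here and below are on the log2(FPKM + 0.5) scale, which understates the change of low genes, and adjusted p-values are from limma with Benjamini-Hochberg adjustment over all genes tested. With 2 libraries against 2 an exact permutation test cannot go below p = 0.333, so none was used. In whole retina, more cells of a type and more RNA per cell cannot be told apart.

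Ctss encodes cathepsin S, a cysteine endopeptidase that stays active near neutral pH and trims the invariant chain of MHC class II in antigen-presenting cells. The gene lies at chr3:95526786-95556405 on the plus strand (mm10) and has 8 exons. Its level was 4.80 and 3.89 FPKM in 4xIOP control and 70.6 and 56.0 FPKM in 4xIOP. Both treated libraries stood far above both controls, a 13.1-fold rise (95% interval 9.07 to 19.0, log2 fold change 3.71 ± 0.25 SE, adjusted p = 7.25e-07 in limma). By log2 fold change it ranked 38 from the top among all genes tested.

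Ctsh, Ctsc and Ctsz were also called higher. Ctsh encodes cathepsin H, mainly an aminopeptidase, from 12 exons at chr9:90054267-90076095 on the plus strand. Its level was 3.41 and 4.24 FPKM in 4xIOP control and 18.5 and 18.4 FPKM in 4xIOP. The treated libraries agreed closely and did not overlap with the controls, a 4.40-fold rise (log2 fold change 2.14 ± 0.21, adjusted p = 2.22e-05 in limma). Ctsc encodes cathepsin C, a dipeptidyl peptidase that activates serine proteases of leukocyte granules, from 7 exons at chr7:88278085-88315861 on the plus strand. Its level was 0.671 and 0.992 FPKM in 4xIOP control and 4.31 and 3.97 FPKM in 4xIOP. It was among the lowest of the 10 genes but the groups were well apart, with a log2 fold change of 1.81 ± 0.21 (adjusted p = 7.64e-05 in limma). Ctsz encodes cathepsin Z, a carboxypeptidase also called cathepsin X, from 6 exons at chr2:174427494-174439039 on the minus strand. Its level was 9.75 and 8.10 FPKM in 4xIOP control and 25.5 and 33.6 FPKM in 4xIOP. The treated libraries were the higher ones without overlap (log2 fold change 1.66 ± 0.25, adjusted p = 0.0006 in limma). Without 4xIOP control replicate 2 the adjusted p of Ctsz in limma was 0.0724, the highest of its values with 1 library left out, which began at 0.0133.

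Of the LAMP genes, Lamp2 was called higher and Lamp1 was not, and the difference between them was not tested. LAMP2, whose A form is the receptor of chaperone-mediated autophagy, is encoded by 9 exons at chrX:38405049-38456460 on the minus strand, and the counting over 1 isoform did not separate its splice forms. Its level was 12.4 and 11.4 FPKM in 4xIOP control and 25.1 and 31.1 FPKM in 4xIOP. The groups did not overlap, and Lamp2 rose by 1.20 ± 0.24 on the log2 scale (adjusted p = 0.00627 in limma). Leaving out either control library ended this call, with adjusted p = 0.234 in limma without replicate 1 and 0.412 without replicate 2, and leaving out either treated library did not (0.0154 and 0.0287). Lamp1, at chr8:13159161-13175338 on the plus strand with 9 exons, was at 47.3 and 46.1 FPKM in 4xIOP control and 52.1 and 70.1 FPKM in 4xIOP. Its treated libraries were above its controls, but the log2 fold change of 0.37 ± 0.29 did not pass (adjusted p = 0.737 in limma).

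Ctsd, Ctsb and Ctsl lay above their controls without being called. Ctsd, which encodes the aspartic protease cathepsin D from 9 exons at chr7:142375910-142387827 on the minus strand, was at 101 and 103 FPKM in 4xIOP control and 155 and 221 FPKM in 4xIOP. Its log2 fold change was 0.85 ± 0.35 (adjusted p = 0.223 in limma). Ctsb, which encodes a cysteine protease with both endopeptidase and carboxydipeptidase activity (chr14:63122462-63145923, plus strand, 10 exons), was at 47.7 in both controls and at 70.4 and 82.6 FPKM in 4xIOP, with a log2 fold change of 0.67 ± 0.29 (adjusted p = 0.270 in limma). Ctsl, which encodes the cysteine endopeptidase cathepsin L (chr13:64361890-64370520, minus strand, 8 exons), was at 20.6 and 17.2 FPKM in 4xIOP control and 27.2 and 45.1 FPKM in 4xIOP. Its log2 fold change was 0.88 ± 0.29 (adjusted p = 0.103 in limma). For all 3 the groups did not overlap, and replicate 2 of 4xIOP was the higher one. That library also had the highest ratio of short to long transcripts in its table, 2.91 against 1.97 to 2.12 in the others, whose part in these values was not tested beyond one alternative. With the trend on transcript length removed the log2 fold changes in limma were 0.82 for Ctsd (adjusted p = 0.127), 0.73 for Ctsb (0.136) and 0.90 for Ctsl (0.0425, past the adjusted p but under 2-fold). Quantile normalisation also took Ctsd and Ctsl past the adjusted p (0.00781 and 0.0318), as did voom for Ctsd (0.0283), all under 2-fold. Without 4xIOP replicate 1, Ctsd and Ctsl passed in limma with adjusted p = 0.0335 and 0.0280. Without 4xIOP replicate 2 the log2 fold changes were 0.60 for Ctsd (adjusted p = 0.141) and 0.52 for Ctsl (0.208). Tfeb (chr17, 9 exons) was at 1.39 and 1.49 FPKM in 4xIOP control and 1.57 and 1.17 FPKM in 4xIOP, where the groups overlapped (log2 fold change -0.06 ± 0.22, adjusted p = 0.969 in limma).

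In all, 9 of the 10 genes were higher in 4xIOP without overlap, where 27.7% of all genes tested were higher and 12.7% lower, and the median log2 fold change of the 10 was 1.04 against 0.10 for all genes. Set beside the promoters, Ctss, Ctsc, Ctsz and Lamp2 are called genes with no CACGTG in the window, Lamp1, Ctsd and Ctsl hold it and were not called, and Tfeb neither holds it nor was called. The longer form TCACGTG, found in 3.13% of all windows, was held by Lamp1 and Ctsd and not by Ctsl. This is a description of letters in 8 promoters, and the part of TFEB was not tested.

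**Figure D2:**
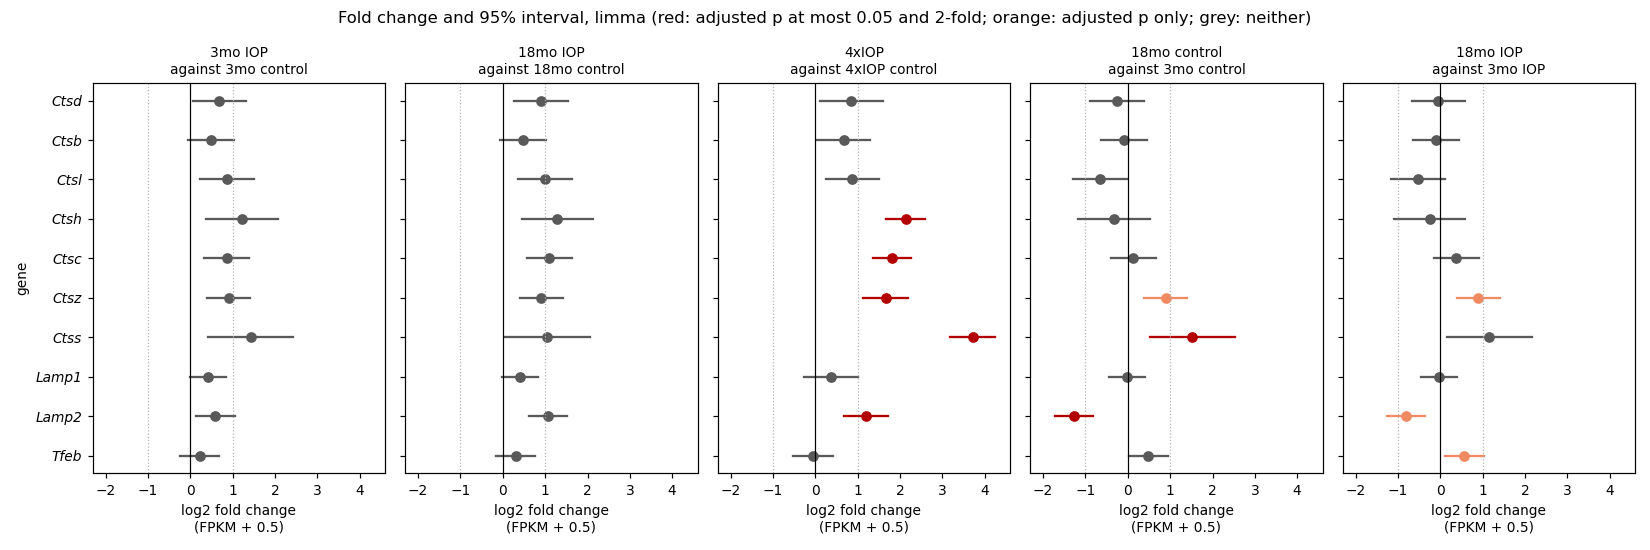
Log2 fold change of FPKM + 0.5 (points) with the 95% interval of the limma fit (lines) for the 10 genes in 5 comparisons, where dotted lines mark a 2-fold change. Red points, which pass both the adjusted p and the fold, number 5 after 4 elevations and 2 between the untreated eyes of the 2 ages (Ctss higher, Lamp2 lower), and after a single elevation no point is coloured.

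A single elevation asked what 1 h of mild pressure did at each age. At 3 months all 10 genes were higher in both IOP libraries than in both controls, as were 28.6% of all genes tested (3.95% were lower in both), yet none passed an adjusted p of 0.05. By the rule with a 2-fold change 0.568% of all genes were called higher and 0.00728% lower. An unadjusted p under 0.05 was reached by 7 of the 10, all of them higher, compared with 8.28% of all genes higher and 0.233% lower by that rule. The members' median log2 fold change was 0.77, beside 0.13 for all genes. Under median-of-ratios size factors the median of all genes moved by -0.19 in this comparison and all 10 genes stayed higher.

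Ctss was at 9.83 and 16.9 FPKM in 3mo control and 47.0 and 26.9 FPKM in 3mo IOP. The groups were apart, but the replicates of each differed by 1.72-fold and 1.74-fold, and the log2 fold change of 1.43 ± 0.44 did not pass (adjusted p = 0.297 in limma). Ctsh was at 10.6 and 26.0 FPKM in 3mo control and 45.1 and 34.5 FPKM in 3mo IOP (log2 fold change 1.22 ± 0.37, adjusted p = 0.282 in limma). Its 2 controls differed by 2.45-fold, the widest pair of the 10 genes in that group. Ctsz was at 9.87 and 12.9 FPKM in 3mo control and at 25.2 and 18.6 FPKM in 3mo IOP (log2 fold change 0.91 ± 0.22), with the smallest adjusted p of the 10 in limma, 0.163. Ctsl was at 32.1 and 58.3 FPKM in 3mo control and 90.3 and 70.3 FPKM in 3mo IOP (log2 fold change 0.87 ± 0.28, adjusted p = 0.328 in limma). Without 3mo control replicate 2, the higher control library, Ctsh and Ctsl passed with a log2 fold change of 1.84 and 1.30 and a limma adjusted p of 0.0453 for each. With replicate 1 of that group left out instead, the values were 0.59 for Ctsh (adjusted p = 0.195) and 0.45 for Ctsl (0.216). Ctsd was at 140 and 191 FPKM in 3mo control and 325 and 212 FPKM in 3mo IOP. Replicate 1 of 3mo IOP, its highest library, also had the highest sum of pigment epithelium markers at 528 FPKM, where the other libraries of 3mo control and 3mo IOP were between 199 and 214. That library was the higher of its pair for every gene of the 10 except Lamp2. Its sums of microglia and other leukocyte markers, 131 and 92.2 FPKM, were also the highest of these 2 groups. The part of these cells in the values was not tested. Lamp2 was at 27.9 and 37.0 FPKM in 3mo control and 48.6 and 49.1 FPKM in 3mo IOP, while the changes of Ctsb, Lamp1 and Tfeb were the smallest, at log2 fold changes of 0.49, 0.41 and 0.23.

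At 18 months again all 10 genes were higher in both IOP libraries, as were 36.5% of all genes tested (9.89% were lower in both), and again none passed. The rule with a 2-fold change called 0.117% of all genes higher and 0.00728% lower. An unadjusted p under 0.05 was reached by 7 of the 10, all of them higher, compared with 8.71% of all genes higher and 0.736% lower. The members' median log2 fold change was 0.96, beside 0.09 for all genes.

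Lamp2 came closest, at 13.1 and 12.8 FPKM in 18mo control and 24.6 and 30.9 FPKM in 18mo IOP. Both treated libraries were well above both controls (log2 fold change 1.06 ± 0.20), but the limma adjusted p was 0.101. With the trend on transcript length removed it passed in limma, with a log2 fold change of 1.02 and an adjusted p of 0.0418 within a range of 0.0228 to 0.304 over alternatives. Ctsc was at 1.97 and 1.61 FPKM in 18mo control and 4.40 and 4.39 FPKM in 18mo IOP, with near-equal treated libraries (log2 fold change 1.10 ± 0.23, adjusted p = 0.124 in limma). Ctsh was at 13.8 and 12.7 FPKM in 18mo control and 37.0 and 29.6 FPKM in 18mo IOP (log2 fold change 1.29 ± 0.37, adjusted p = 0.225 in limma). Ctsl was at 27.9 and 26.7 FPKM and, treated, at 53.4 and 57.3 FPKM, with a log2 fold change of 1.01 ± 0.28. Ctsd was at 134 and 139 FPKM and, treated, at 280 and 232 FPKM, with a log2 fold change of 0.90 ± 0.28. In these libraries pigment epithelium markers summed to at most 11.6 FPKM. Ctss was at 36.4 and 40.1 FPKM in 18mo control and at 122 and 51.8 FPKM in 18mo IOP. Its treated libraries differed by 2.36-fold, and the log2 fold change of 1.05 ± 0.44 did not pass (adjusted p = 0.488 in limma). It was at 0.44 without 18mo IOP replicate 1 and 1.67 without 18mo IOP replicate 2.

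The response to a single elevation could not be shown to differ between the ages. The interaction of IOP with age had a limma adjusted p of 1.00 for each of the 10 genes, and no gene of the 13731 tested passed. At an unadjusted p under 0.05, 0.575% of all genes had a larger response at 18 months and 1.01% a smaller one. For Ctss the response at 18 months minus that at 3 months was -0.38 on the log2 scale, with a 95% interval from -1.80 to 1.04. For Lamp2 it was 0.47, from -0.17 to 1.10, and for Ctsc 0.25, from -0.50 to 0.99. For Lamp1, the narrowest, it was -0.01, from -0.62 to 0.59. The interval reached past 1.5-fold in at least 1 direction for all 10 genes and in both directions for 7, so like responses were not shown either.

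Between untreated eyes of the 2 ages, the genes moved in different directions. Ctss was called higher and Lamp2 lower at 18 months, where 11.6% of all genes tested were called higher and 11.6% lower by the same rule, so the members' share was close to the background. Under median-of-ratios size factors the all-gene split was 1061 higher and 1971 lower in place of 1595 and 1590. Counted by groups that did not overlap, 3 of the 10 genes were higher and 3 lower, beside 45.7% and 32.8% of all genes.

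Ctss was at 9.83 and 16.9 FPKM in 3mo control and 36.4 and 40.1 FPKM in 18mo control, with both older libraries above both younger ones (log2 fold change 1.53 ± 0.44, adjusted p = 0.0239 in limma). The call was lost in limma without 18mo control replicate 1 (adjusted p = 0.0801), without 18mo control replicate 2 (0.104) and without replicate 1 of 3mo control (0.103), and it held when replicate 2 of that group was left out (0.0385). Ctsz was at 9.87 and 12.9 FPKM in 3mo control and 19.5 and 23.6 FPKM in 18mo control. It passed the adjusted p but not the 2-fold threshold (log2 fold change 0.89 ± 0.22, adjusted p = 0.0150 in limma), and 26.7% of all genes were higher at that adjusted p, a share that includes the 11.6% that also reached 2-fold. Without 18mo control replicate 1 or 2 Ctsz no longer passed the adjusted p (log2 fold change 1.03 or 0.76). Without 3mo control replicate 1 or 2 its log2 fold change was 0.71 or 1.08. Lamp2 was at 27.9 and 37.0 FPKM in 3mo control and 13.1 and 12.8 FPKM in 18mo control. The older libraries were the lower ones without overlap (log2 fold change -1.28 ± 0.20, adjusted p = 0.00543 in limma), and the call held with each library left out. Ctsl, at 32.1 and 58.3 FPKM against 27.9 and 26.7 FPKM, did not pass (log2 fold change -0.66 ± 0.28, adjusted p = 0.0843 in limma), but was called lower without 3mo control replicate 1 (log2 fold change -1.08, adjusted p = 0.00267 in limma) and was at -0.23 with replicate 2 of that group left out (adjusted p = 0.339). Tfeb, at 1.31 and 1.62 FPKM against 1.94 and 2.59 FPKM, did not pass either (log2 fold change 0.49 ± 0.20, adjusted p = 0.0755 in limma). Ctsb, Ctsc, Ctsd, Ctsh and Lamp1 had log2 fold changes between -0.32 and 0.13 and a limma adjusted p of at least 0.470, and the sign of each turned under another scaling or with 1 library left out.

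The ages also differed in the length bias and the pigment epithelium markers given above, whose part in these differences was not tested beyond one alternative. With the trend on transcript length removed, Ctss (log2 fold change 2.02), Ctsz (1.31) and Lamp2 (-1.13) kept their directions and all 3 were called in limma, with adjusted p of 0.00583, 0.00216 and 0.00204 (over the alternatives at most 0.0538, 0.0398 and 0.0259). In that fit Ctsl passed the adjusted p downwards without reaching 2-fold (log2 fold change -0.85, adjusted p = 0.0484 in limma).

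Between IOP-treated eyes of the 2 ages none of the 10 genes was called at 2-fold, where 10.2% of all genes were called higher and 11.6% lower. These eyes were other libraries than the untreated ones but may come from the same mice. Counted by groups that did not overlap, 4 of the 10 genes were higher and 2 lower, beside 43.2% and 34.5% of all genes. Ctsz was at 25.2 and 18.6 FPKM in 3mo IOP, against 43.8 and 37.7 FPKM in 18mo IOP (log2 fold change 0.89 ± 0.22, adjusted p = 0.0168 in limma). Lamp2 was at 48.6 and 49.1 FPKM in 3mo IOP, against 24.6 and 30.9 FPKM in 18mo IOP (log2 fold change -0.81 ± 0.20, adjusted p = 0.0156 in limma). Tfeb was at 1.81 and 1.77 FPKM in 3mo IOP, against 2.82 and 2.98 FPKM in 18mo IOP, where the older libraries were higher (log2 fold change 0.57 ± 0.20, adjusted p = 0.0491 in limma). These 3 passed the adjusted p without reaching 2-fold, 2 of them higher and 1 lower. At that adjusted p 23% of all genes were higher and 19.6% lower, shares that include the genes past 2-fold. Ctsz was called at 2-fold under quantile normalisation (log2 fold change 1.13, adjusted p = 0.00511 in limma) and with the length trend removed (1.34, 0.00246). Over the alternatives that kept every library the limma adjusted p of Tfeb lay between 0.0418 and 0.127. It was above 0.05 with size factors (0.0813), quantile normalisation (0.127), voom (0.0875) and the length trend removed (0.0669). It was also above 0.05 with a pseudocount of 0.1, no filter, a filter at a mean of 2 FPKM and either replicate block. The value of Tfeb did not pass with any 1 library left out either (log2 fold change from 0.54 to 0.60). Those of Ctsz and Lamp2 did not pass with any library but 18mo IOP replicate 2 left out (0.0460 and 0.0355 without it, at most 0.116 and 0.0875 otherwise). Ctss, at 47.0 and 26.9 FPKM against 122 and 51.8 FPKM, was 2.22-fold higher at 18 months but missed the threshold (adjusted p = 0.0636 in limma). Its log2 fold change of 1.15 depended on single libraries. It was called without 18mo IOP replicate 2 (log2 fold change 1.77, adjusted p = 0.0312 in limma), and was at 0.54 without 18mo IOP replicate 1 (adjusted p = 0.328) and at 0.76 without 3mo IOP replicate 2 (0.311). It was also called under quantile normalisation (1.56, adjusted p = 0.0227) and with the length trend removed (1.67, 0.0130).

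Microglia markers also moved in these comparisons, though not with all of the 10 genes: with age in untreated eyes they rose, as Ctss and Ctsz did, while Lamp2 fell. The list held 13 genes outside the 10, among them Cx3cr1, P2ry12, Tmem119, Csf1r, Aif1 and C1qa, and none was at 0 in any library. Their summed level was 28.2 and 51.8 FPKM in 3mo control, 131 and 99.975 FPKM in 3mo IOP, 91.8 and 105 FPKM in 18mo control and 285 and 137 FPKM in 18mo IOP. In the 4xIOP table it was 13.3 and 13.5 FPKM in controls and 162 and 173 FPKM in 4xIOP. After 4 elevations 11 of the 12 markers tested passed the adjusted p upwards, beside 6.85% of all genes. Between the 2 ages 7 of 13 did in untreated eyes, beside 26.7% of all genes, and 4 of 13 in treated eyes, beside 23%. After a single elevation none of the 13 passed in limma at either age, with 13 having values above the control at 3 months and 11 at 18 months. Markers of other leukocytes, including Ccr2, Lyz2 and S100a8, summed to 2.15 and 1.47 FPKM in 4xIOP control and 195 and 191 FPKM in 4xIOP. Of the 12 listed 9 were tested, and all 9 passed upwards, beside 6.85% of all genes. With control sums this low, the 9 could not all reach the filter of 0.5 FPKM without the treated libraries. Their count therefore carries no weight of its own. Of this list Cd3e was at 0 in 3 of the 4 libraries of that table. Pigment epithelium markers went the other way in that table, from 29.2 and 39.8 FPKM in controls to 3.70 and 7.29 FPKM. Rod markers summed to 9648 and 10100.1 FPKM in 4xIOP control and 4768 and 7162 FPKM in 4xIOP, with none of 8 past the adjusted p. Summed Muller glia markers lay between 983 and 1076 FPKM in all 4 libraries. Taken singly, 6 of 8 were above the control, with a median log2 fold change of 0.54 beside 0.10 for all genes. By adjusted p 1 of 8 was higher, beside 6.85% of all genes.

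In the single-IOP table other lists moved too. Summed markers of other leukocytes were at 10.003 and 19.9 FPKM in 3mo control, against 92.2 and 37.2 FPKM in 3mo IOP, where 1 of 6 tested passed upwards, beside 0.568% of all genes. At 18 months they were at 15.2 and 9.76 FPKM in control eyes and at 58.7 and 57.7 FPKM in treated ones, where none of 6 passed. Treated libraries were the higher ones at both ages. Muller glia markers at 18 months were at 2104 and 1703 FPKM in control eyes and 3170.0 and 3042 FPKM in treated ones, above the control for 8 of 8 with none past the adjusted p. Blood markers at that age went the other way, at 166 and 426 FPKM in control eyes and 54.3 and 44.3 FPKM in treated ones, below the control for 5 of 5 with none past the adjusted p, and their sum in the 3mo libraries lay between 19.5 and 313 FPKM. With age, Muller glia markers went from 760 and 1140.2 FPKM to 2104 and 1703 FPKM in untreated eyes (5 of 8 higher by adjusted p in limma, beside 26.7% of all genes). Retinal ganglion cell markers went from 337 and 637 FPKM to 38.5 and 86.0 FPKM (6 of 9 lower), and 9 of 9 tested pigment epithelium markers were lower, beside 19.2% of all genes. The part of these cells in the values of the 10 genes was not tested.

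Ctss followed the microglia markers across libraries. Its FPKM divided by the summed FPKM of the markers lay between 0.269 and 0.436 in all 12 libraries, a 1.62-fold range, although its own level ranged 12.4-fold in the single-IOP table and 18.1-fold in the 4xIOP table. For the other 9 genes the same ratio, taken over both tables together, ranged at least 4.74-fold, the value of Ctsh, and up to 16.5-fold for Tfeb. Within 1 table the contrast was smaller for some genes. In the single-IOP table Ctsz lay between 0.154 and 0.3496 and Ctsh between 0.121 and 0.502, beside 0.269 to 0.429 for Ctss. In the 4xIOP table Ctsz lay between 0.157 and 0.731 and Ctsh between 0.106 and 0.315, beside 0.289 to 0.436 for Ctss. Ctsd gave 7.58 and 7.67 per unit of marker FPKM in 4xIOP control and 0.958 and 1.27 in 4xIOP. No such ratio was computed for the other leukocyte markers, which were also higher in treated libraries, so a tie of Ctss to microglia in particular was not tested. The points share library and normalisation, and the part of cell numbers in these values was not tested.

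**Figure D3:**
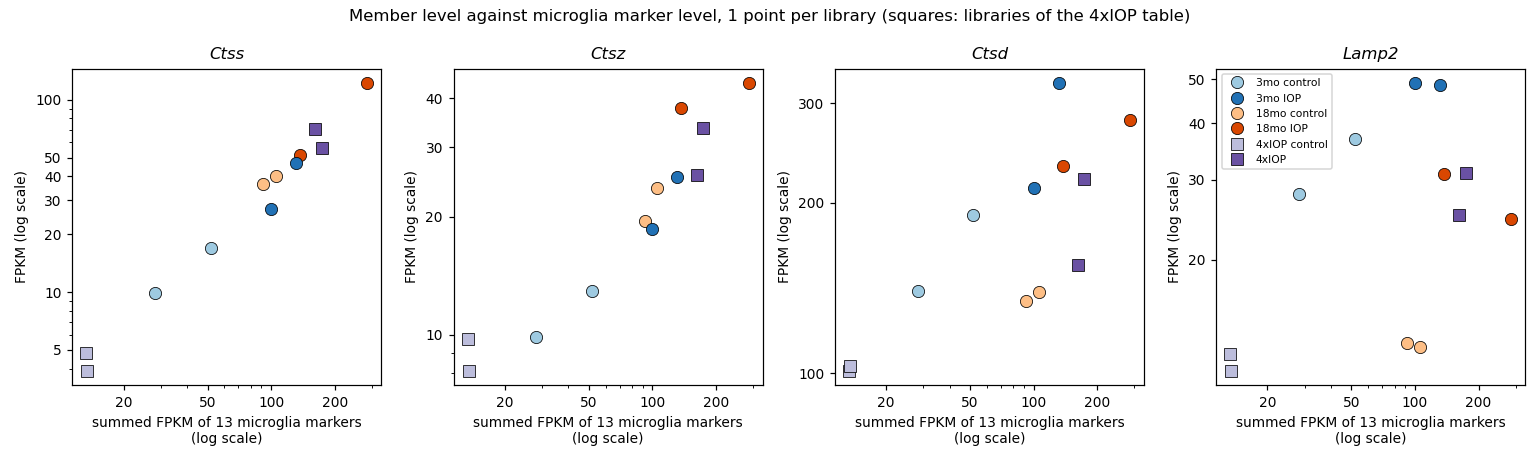
FPKM of Ctss, Ctsz, Ctsd and Lamp2 against the summed FPKM of 13 microglia markers, both on log scales, with 1 point per library. Ctss lies along a line of near-constant ratio (0.269 to 0.436), whereas Lamp2 is at 13.1 and 12.8 FPKM in 18mo control eyes whose marker sum (91.8 and 105) is above that of 3mo control eyes.

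Among themselves, over the 8 single-IOP libraries, the 10 genes fell along more than 1 pattern. The highest Pearson r of log2 values was 0.96 for Ctss and Ctsz, followed by 0.95 for Ctsh with both Ctsb and Ctsd, while Lamp2 gave -0.16 with Ctss and -0.34 with Tfeb. Over all genes tested, the 3 most like Ctss were Tgfb1, Itgb2 and Cd14 (r of 0.99 each), a cytokine, a leukocyte integrin chain and a receptor for bacterial lipopolysaccharide. Those most like Ctsb were Slc25a3, Tubb4b and Snhg18 (0.98 to 0.99), those most like Ctsd were Rasl11b, Hnrnph2 and Gyg (0.97 to 0.98), and those most like Ctsh were Mmgt2, Clic1 and Aldoc (0.98 each). Ctsl was most like Ola1, S100a4 and Bpnt1 (0.99 each) and Tfeb most like Baiap2l1, 1600002K03Rik and H2-Q6 (0.96 to 0.98). Those most like Ctsz were Tapbpl, Mcub and Rhog (0.99 to 1.00), and those most like Ctsc were Anxa4, H2-M3 and Cnn3 (0.98 to 0.99). Lamp2 was most like Tmem165, Extl2 and Sdcbp (0.99 to 1.00), and Lamp1 most like Chpt1, Capg and Abhd11 (0.98 to 1.00). These values describe 8 libraries that share age and treatment groups and depth.

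The other genes of the lysosome were read from a list of 121 in 9 roles, of which 111 were tested in the single-IOP table and 110 in the 4xIOP table. After 4 elevations 11 were higher by adjusted p and none lower, against 6.85% of all genes higher and 1.1% lower, and the median log2 fold change was 0.21 beside 0.10 for all genes. The 11 lay in 4 roles. Among other membrane proteins 4 of 20 rose, including Cd68, a macrophage lysosomal glycoprotein, which went from 0.771 and 0.572 FPKM to 7.26 and 5.96 FPKM (log2 fold change 2.60 ± 0.21, adjusted p = 3.07e-06 in limma). Laptm5, a lysosomal transmembrane protein of blood cells, and Cd63, a tetraspanin, rose with log2 fold changes of 2.54 and 1.19. Laptm5 was at 0.512 and 0.275 FPKM in 4xIOP control and 5.82 and 3.68 FPKM in 4xIOP, so it reached the filter through the treated libraries. Cd63 was at 11.3 and 12.4 FPKM in 4xIOP control. Among glycosidases and sulfatases 3 of 23 rose, among them Gusb, the beta-glucuronidase gene, from 1.01 and 1.26 FPKM to 3.02 and 3.92 FPKM, and Galns with a log2 fold change of 1.06. Among lipid hydrolases and saposins 3 of 9 rose, namely Grn, which encodes progranulin (log2 fold change 1.29), Gm2a and Lipa. Of 18 subunits of the proton pump, the V-ATPase, only Atp6v0e passed, and none of the 16 tested MiT/TFE factors and mTORC1 regulators did.

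After a single elevation no gene of the list passed at either age. At 3 months 98 and at 18 months 95 of the 111 had values above the control, with medians of 0.24 and 0.20 on the log2 scale beside 0.13 and 0.09 for all genes.

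Between untreated eyes of the 2 ages 33 of 111 were higher by adjusted p and 23 lower, close to the 26.7% and 19.2% of all genes. Glycosidases and sulfatases gave 8 higher and none lower of 23, among them Man2b1 (log2 fold change 1.22). V-ATPase subunits gave 2 higher and 8 lower of 18, with Atp6v1f at 101 and 252 FPKM in 3mo control and 37.6 and 39.5 FPKM in 18mo control (log2 fold change -2.03). Of the 3 cathepsin inhibitors tested, Cstb and Cst3, which encode cystatins B and C, were lower (log2 fold changes -2.14 and -1.59). Cst7, the cystatin F gene of leukocytes, was higher (log2 fold change 1.24). It was at 0.074 and 0.021 FPKM in 3mo control and 0.978 and 0.632 FPKM in 18mo control. At values this low the fold change of Cst7 depends on the constant added before the log2. Lamtor4, Lamtor5 and Lamtor2, parts of the Ragulator scaffold of mTORC1, were lower, with log2 fold changes of -1.63, -1.55 and -1.37. The ratio of short to long transcripts moved with age as given above, and its part in these counts was not tested.

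**Figure D4:**
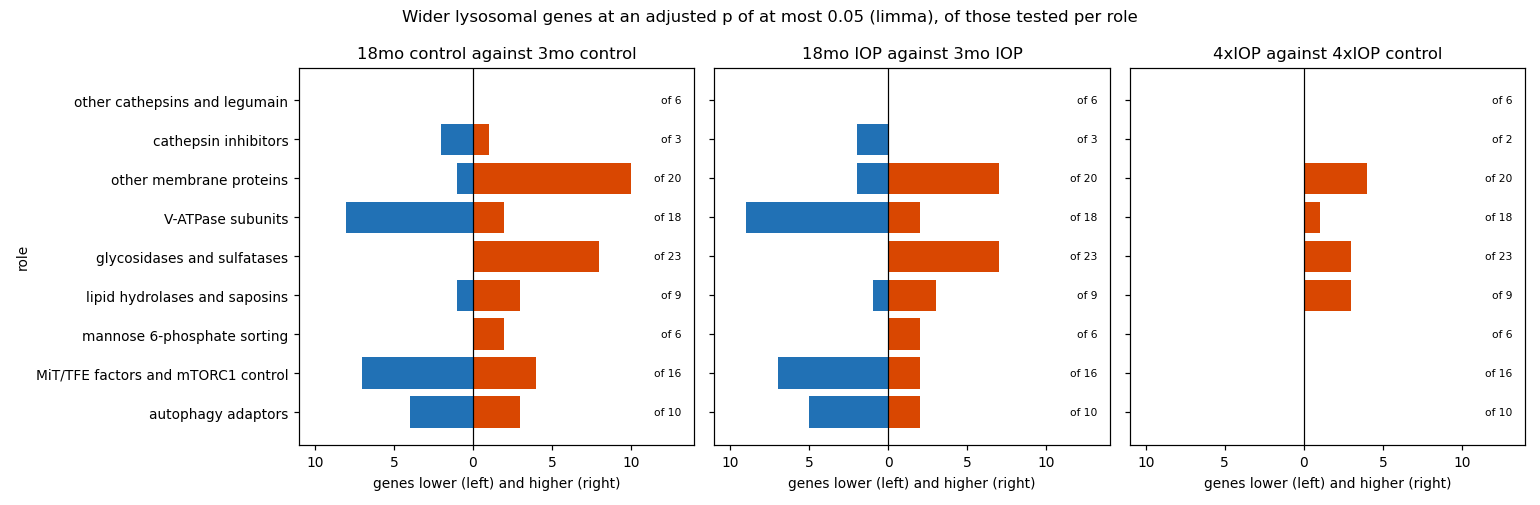
Number of other lysosomal genes lower (blue, left) and higher (orange, right) at an adjusted p of at most 0.05 in limma, by role, in 3 comparisons, with the number tested at the right. With age the V-ATPase subunits and the mTORC1 group hold more lower than higher genes (8 against 2 and 7 against 4), and after 4 elevations no gene is lower.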

How the data were processed

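The 10 genes and the lists were chosen with earlier results of these data known. Per the submitters' processing notes and the study's methods, the authors aligned reads to mm10 with STAR 2.7.8a and used HOMER to count unique, sense-strand exonic tags for 1 isoform per locus, and deposited FPKM in a separate table for the single-IOP and the repeated-IOP libraries. Tfeb had another isoform in each table. Replicates were not pooled. Because reads were counted with strand, antisense partners such as Fdft1 at Ctsb were not counted, whereas same-strand transcripts (Gm49369 over Ctsd, Gm44751 over Ctsc, Hmgb1-ps5 in Ctss) make those values less certain. Depth was recovered from the steps of the FPKM values, and 100% of the values checked came to whole reads within 0.1.

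Tests covered the genes whose mean reached 0.5 FPKM, 13731 and 13718. The fit in limma 3.58.1 (R 4.3.3) used log2(FPKM + 0.5) and a variance trend in eBayes. A model of 4 groups took the 8 single-IOP libraries (4 residual degrees of freedom, prior 4.12), and a separate model took the 4 others (2, prior 10.6). Calls needed an adjusted p (Benjamini-Hochberg) no higher than 0.05 and a 2-fold change, a log2 value of 1 or more in size, and for the interaction the adjusted p alone. The script was tested on simulated data. Named were all 10 genes, up to 3 other lysosomal genes per role with the largest change among those that passed (some are not reported here), and the 3 genes most correlated with each of the 10. Comparisons that share a group share its libraries. Limits in reads cover counting error only.

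Alternatives were pseudocounts of 0.1 and 1, no filter, median-of-ratios size factors, a filter at a mean of 2 FPKM, quantile normalisation, eBayes without a trend, a replicate block, only the 2 groups compared, removal of a spline of 5 degrees of freedom on transcript length, voom on recovered reads, and leaving out each library. A crossed block was added after seeing the data.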

Additional observations from a re-analysis of the deposited data

How the results depend on the processing

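Over 64 of 70 recomputed counts of called members the count stayed within 1.5 times of the reported one, as it did in 23 of 28 with 1 library left out. Between untreated eyes of the 2 ages 2 members were called, against 1 with no filter on low values (Ctss was lost). After a single elevation at 18 months 0 were called, against 1 with the length trend removed. Between IOP-treated eyes of the 2 ages 0 were called, against 2 under quantile normalisation and 2 with the length trend removed (Ctss and Ctsz in both). The cause was not tested. With 1 library left out, the counts ranged from 1 to 3 between untreated eyes (1 without either 18mo control library), from 0 to 2 after a single elevation at 3 months (2 without 3mo control replicate 2), from 0 to 1 between IOP-treated eyes (1 without 18mo IOP replicate 2) and from 3 to 7 after 4 elevations (3 without 4xIOP control replicate 2). Such fits have fewer libraries, and the lone library is assumed to vary like the other groups. Tfeb could not be tested in the 4xIOP table at a mean of at least 2 FPKM.

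The replicate block gave the same member counts, with 2 between untreated eyes, 0 after a single elevation at either age and 5 after 4 elevations, and it changed no other call of a member at 2-fold. Over all genes it gave 20 calls in place of 79 at 3 months and 0 in place of 17 at 18 months. The numbers were not taken as pairs, since the labels tie none to a mouse and same-numbered deviations correlated at -0.275, -0.53 and -0.29 (3 months, 18 months and 4xIOP). A crossed replicate block, chosen after seeing these values, called 2 members at 3 months, 4 at 18 months and 5 after 4 elevations.

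Over all genes, calls after a single elevation were the least steady, between 3 (voom) and 312 (crossed block) at 3 months, where 79 were reported, and between 0 and 306 at 18 months, where 17 were. Leaving out 1 library gave 0 to 257 and 0 to 144. Between untreated eyes the count was 2214 to 3825 over alternatives (3185 reported) and 1176 to 4717 with 1 library left out, between IOP-treated eyes 2021 to 3553 (3000) and 722 to 2811, and after 4 elevations 475 to 967 (843) and 682 to 798.

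No log2 fold change of a called member turned sign. The uncalled ones that did had reported values between -0.38 and 0.38, and some passed the adjusted p once turned or with 1 library left out, all below 2-fold. Under quantile normalisation these were Ctsb and Lamp1 in both comparisons of age (adjusted p in limma of 0.0228 and 0.0276 between untreated eyes, 0.0236 and 0.0261 between treated) and Ctsd between treated eyes (0.0492), and without 3mo control replicate 1 Ctsh was at -0.95 (0.00913). Between untreated eyes of the 2 ages, quantile normalisation gave Ctsb 0.55, Ctsc -0.079, Ctsd 0.40 and Lamp1 0.57, and Ctsc was also -0.0018 under size factors, -0.0021 under voom and -0.31 with the length trend removed. Between IOP-treated eyes, quantile normalisation gave Ctsb 0.54, Ctsd 0.62, Ctsh 0.021 and Lamp1 0.58, and removing the length trend gave Ctsc -0.14, Ctsd 0.058 and Ctsh 0.058. For the interaction, size factors gave Ctsb 0.073, Ctsz 0.075 and Lamp1 0.067, voom gave Ctsb 0.074, Ctsz 0.061 and Lamp1 0.068, quantile normalisation gave Ctsz 0.17 and Lamp1 0.013, the length trend removed gave Ctsz 0.028 and Lamp1 0.019, and a pseudocount of 1 gave Ctsz 0.011. With 1 library left out the ranges that crossed 0 were, between untreated eyes, Ctsb -0.33 to 0.17, Ctsc -0.10 to 0.36, Ctsh -0.95 to 0.30 and Lamp1 -0.080 to 0.042. Between IOP-treated eyes they were Ctsb -0.30 to 0.12, Ctsd -0.35 to 0.26 and Lamp1 -0.15 to 0.089, and after 4 elevations Tfeb -0.22 to 0.093. For the interaction they were Ctsb -0.26 to 0.24, Ctsd -0.10 to 0.52, Ctsh -0.55 to 0.70, Ctsl -0.29 to 0.56, Ctss -0.99 to 0.24, Ctsz -0.21 to 0.21, Lamp1 -0.14 to 0.11 and Tfeb -0.088 to 0.25.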
